A study of Saccharomyces cerevisiae with 72 samples.

Results

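RNA from budding yeast (Saccharomyces cerevisiae) lacking RTT103 was compared with RNA from wild-type yeast on 1 dye-swapped pair of 2-colour splicing arrays, which is 2 of the 72 arrays and 1 of the 36 pairs in the series. The pair was chosen by its titles, which set Drtt103 against WT. The deletion RNA was labelled with Cy5 on one array and with Cy3 on the other, and these are called the Cy5 array and the Cy3 array below. The study asked how splicing responds to amino-acid starvation and to ethanol, and what happens to it in strains that lack non-essential mRNA decay factors. The labels give the genotypes as Drtt103 and as a WT matched to it, the condition as MIN (minimal medium) for both strains, and no time of treatment. They name no parent strain, deletion marker, mating type or number of cultures. Another 5 deletion strains, rai1, rrp6, ski2, upf1 and xrn1, were compared in minimal medium with a wild type of the same title, on 1 pair of arrays each. Their wild-type RNA may be the RNA used here, so their values are only set side by side with those of the rtt103 strain.

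Rtt103 is a nuclear protein with a domain that binds the phosphorylated C-terminal domain (CTD) of RNA polymerase II towards the 3' ends of genes. It is known as a companion of the nuclear exonuclease Rat1 and its partner Rai1, which degrade the RNA that the polymerase goes on making after the transcript has been cleaved, and so help to end transcription. Pcf11 and Nrd1 carry related CTD-binding domains and act in termination at coding and at short non-coding genes.

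Values are log2 ratios of deletion over wild type, averaged over the 6 spots of a probe, where 0 means no difference between the strains. The base of the logarithm is not given in the sources used here and was taken as 2. The level of a gene is the value of its exon probe, or of its only probe, which gave 976 levels. Both arrays hold the same 2 RNA extracts, so they are 1 replicate, no test was possible and no p-value is given. A value was called higher or lower when the mean of both arrays was 0.5 or more in size (1.41-fold) and both arrays had the same sign. RTT103 itself has no probe, so its absence could not be checked. Of its neighbours on the chromosome, SSD1 was at 0.49 and 0.21 on the Cy5 and Cy3 arrays and HRQ1 was at -0.20 and 0.04. In the other 5 strains the deleted gene lay between -4.01 and -2.37, which sets the direction of these arrays as deletion over wild type. The same 5 genes lay between -0.16 and 0.036 in the rtt103 strain.

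Most of the 976 gene levels differed little between the rtt103 strain and wild type, and a few differed strongly on both arrays. The called levels were 28 higher (2.87% of all levels) and 27 lower (2.77%). The same rule called 63 higher and 59 lower in the rai1 strain, 46 and 96 in rrp6, 21 and 27 in ski2, 109 and 89 in upf1, and 258 and 160 in xrn1. Across the 976 levels, both arrays of the rtt103 pair correlated with a Pearson r of 0.65 but a Spearman rho of only 0.15, and 505 levels (51.7%) had the same sign on both. Without the mating-type genes and SPL2, r over the other 966 levels was 0.24. Their pair means then had an SD of 0.25, against 0.20 for the deviation of either array from that mean. These correlations run across probes of the same slides and extracts, so they describe how well both arrays repeat and nothing about other cultures. All 55 levels whose mean reached 0.5 in size had the same sign on both arrays. They were picked by the mean of these same arrays, which favours equal signs, so this is no separate check of the calls.

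**Figure D1:**
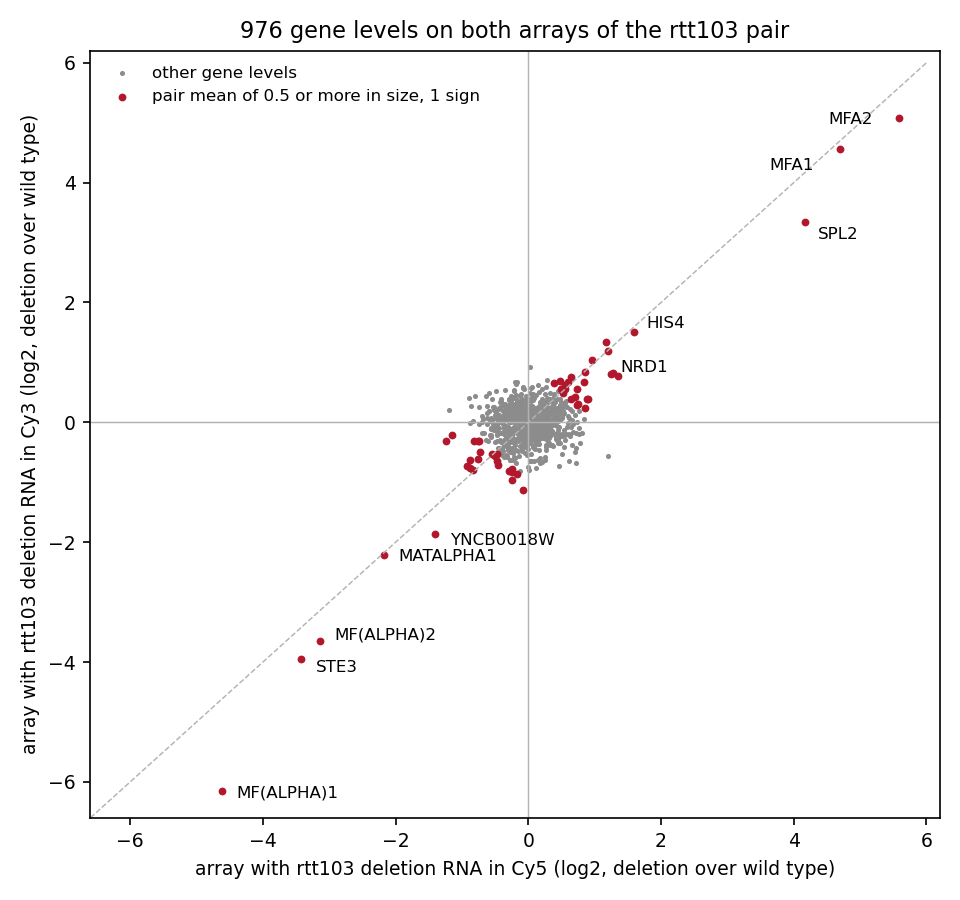
Each point is 1 of 976 gene levels, with its log2 ratio (rtt103 deletion over wild type) on the Cy5 array along x and on the Cy3 array along y; red points are the 55 called levels and the dashed line marks equal values. The mating-type genes and SPL2 lie far along the line, while most points form a cloud around 0.

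The largest differences were in genes that mark the 2 haploid mating types. The a-factor gene MFA2 was at 5.59 and 5.09 on the Cy5 and Cy3 arrays, a mean of 5.34 (40.5-fold), and MFA1, the other a-factor gene, was at 4.69 and 4.56. The alpha-factor gene MF(ALPHA)1 was at -4.62 and -6.16, and MF(ALPHA)2 was at -3.15 and -3.65. STE3, which encodes the a-factor receptor of alpha cells, was at -3.42 and -3.95, and the alpha regulator MATALPHA1 was at -2.18 and -2.21. MATALPHA2 was at -0.88 and -0.77. Of the listed markers, 2 of 3 a-type genes were called higher, beside 2.87% of all levels. Of the alpha-type genes 5 of 5 were called lower, beside 2.77%. Pair means ran from 0.32 to 5.34 in the a-type genes and from -5.39 to -0.82 in the alpha-type genes. The third a-type gene, HMRA1, was at 1.20 and -0.57. HMRA2, which is in neither list and shares part of its sequence with MATALPHA2, was called lower at -0.93 and -0.73. In bulk RNA, fewer cells of a type and less RNA per cell cannot be told apart.

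The same pattern stood in the other 5 strains, where MFA2 ranged from 5.05 to 5.78 and MF(ALPHA)1 from -6.39 to -4.92. The deletion strains thus carried the a-type pattern and their wild type the alpha-type pattern, although the labels call the wild type matched. MATALPHA2 was an exception in upf1 and xrn1, at 0.46 and 0.41, and HMRA2 was at 0.83 and 0.52 there. Mating type and deletion cannot be told apart in any of the 6 comparisons. The 7 measured genes of the shared pheromone response had no called member and a median of -0.097. STE12, which encodes the transcription factor of that response, was lowest among them at -0.31 and -0.34.

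SPL2 had the highest level after the a-factor genes, at 4.17 and 3.33, a mean of 3.75 (13.5-fold). Spl2 is a small protein of the response to low phosphate. SPL2 was also high in the other strains, at 2.60 in rai1, 2.59 in rrp6, 2.14 in ski2, 1.65 in upf1 and 3.55 in xrn1. The other measured phosphate genes were not called. PHO4, which encodes the activator of the pathway, was at 0.43 and -0.18, and PHO85, whose kinase holds that activator in check, was at -0.03 and -0.31.

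Of the 25 measured genes of polymerase II termination and 3' end formation, 2 were called higher and none lower, beside 2.87% and 2.77% of all levels, and 22 had pair means within 0.3 of 0. The median of the list was 0.033, beside -0.0084 over all 976 levels. In 16 of the 25 genes the arrays had opposite signs. NRD1 was at 1.20 and 1.19, a mean of 1.20 (2.29-fold). Nrd1 binds RNA and, with Nab3 and the helicase Sen1, ends short non-coding transcripts, and it is known to limit its own mRNA. Its partners were not called, since NAB3 was at 0.33 and -0.37 and SEN1 at -0.03 and 0.05. Among the other strains NRD1 was at 0.67 in rai1, 2.13 in rrp6, 0.28 in ski2, -0.01 in upf1 and 0.63 in xrn1, so rrp6 alone had a value above that of rtt103.

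PCF11, which encodes a CTD-binding subunit of cleavage factor IA, was at 0.49 and 0.56, a mean of 0.53. Its value was above 0 in the other strains too, at 0.68 in rai1, 0.79 in rrp6, 0.497 in ski2, 0.81 in upf1 and 1.13 in xrn1, and it passed the size for a call in 4 of them. The genes of the exonuclease pair that works with Rtt103 had values near 0: RAT1 was at -0.03 and -0.02, and RAI1 at -0.15 and -0.17. HRP1, for an RNA-binding cleavage factor, missed the size for a call with 0.03 on the Cy5 array and 0.92 on the Cy3 array, which were far apart. SSU72, for a CTD phosphatase, had opposite signs on both arrays, at -0.86 and 0.28. The lowest members with both arrays alike were YSH1, for the endonuclease that cuts the pre-mRNA, at -0.28 and -0.24, and CLP1, of cleavage factor IA, at -0.26 and -0.24. The median of the list was 0.19 in the rai1 strain and 0.15 in rrp6.

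**Figure D2:**
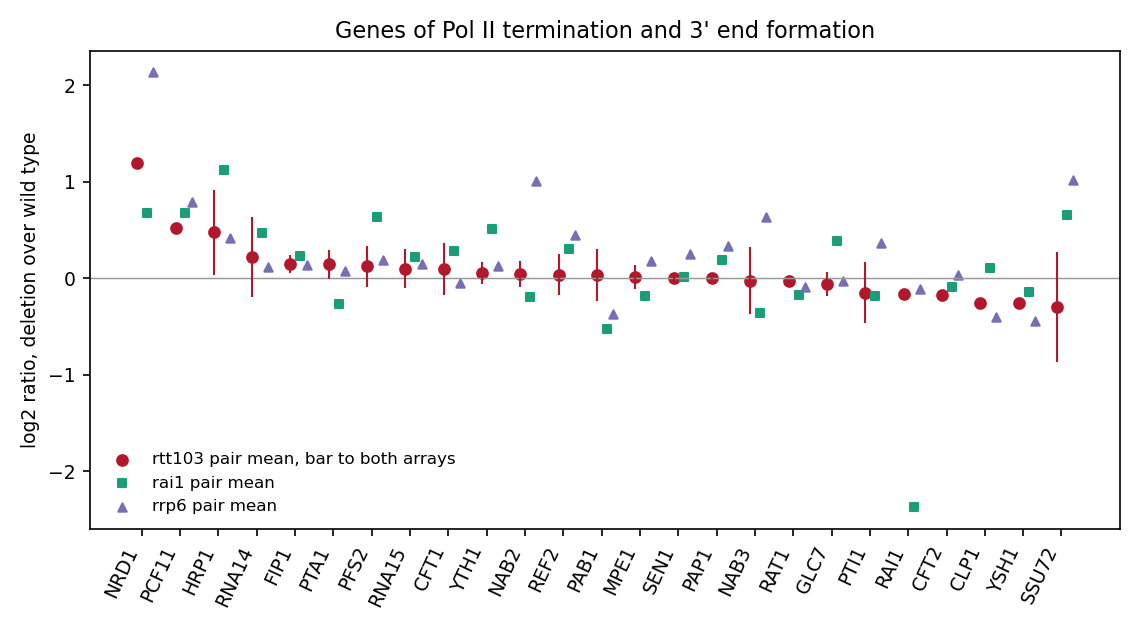
The 25 genes of termination and 3' end formation run along x and the log2 ratio of deletion over wild type along y; red points are rtt103 pair means with a bar reaching to both arrays, squares are rai1 and triangles rrp6 pair means. NRD1 stands at 1.20 with both arrays together, PCF11 follows at 0.53, and HRP1 and SSU72 have the longest bars.

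The 9 measured genes of polymerase II subunits and CTD enzymes had no called member, with a median of -0.052. CTK1, for the kinase that places the phosphate Rtt103 recognises, was at -0.16 and 0.26, and FCP1, for a phosphatase that removes it, was at 0.26 and -0.14. RPB7, for a polymerase subunit, was at -0.10 and -0.44.

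None of the 15 genes of the nuclear exosome and its TRAMP helper complex was called, and neither was any of the 19 genes of cytoplasmic mRNA decay. The exosome list had a median of -0.19, with 8 members below 0 on both arrays and none above 0 on both. Of all 976 levels, 281 were below 0 on both arrays and 224 above. The medians of the exosome list in the other strains were also below 0, from -0.36 to -0.073. RRP40, for a subunit of the exosome cap, was lowest at -0.47 and -0.21, and DIS3, for its catalytic subunit, was at -0.34 and -0.13. In cytoplasmic decay the median was -0.072. DCP1, of the decapping enzyme, was at -0.88 and -0.01, while DCP2, its catalytic partner, was at 0.21 and 0.31.

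Genes of amino acid synthesis and its control held 5 higher members out of 11, against 2.87% of all levels, and none lower. HIS4, which encodes an enzyme with several steps of histidine synthesis, was at 1.59 and 1.50, a mean of 1.54 (2.91-fold). HIS5, for the aminotransferase of the same pathway, was at 1.17 and 1.35. MET28, for a cofactor of the sulphur regulator Met4, was at 1.35 and 0.77. Both arrays were high for these genes. MET22, for a phosphatase that breaks down pAp, a nucleotide that inhibits Rat1 and Xrn1, was at 0.56 on both arrays. GCN1, for a partner of the starvation kinase Gcn2, was at 0.39 and 0.66.

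The other members of the amino acid list stayed under the size for a call. GCN4, for the transcription factor of the general control response, was at 0.07 and -0.10, and GCN2 was at -0.13 and 0.07. A further histidine gene, HIS2, was at -0.11 and -0.02, so not all histidine genes were high. GCN3, for a subunit of the translation factor eIF2B, was lowest at -0.32 and -0.56. The median of the list was 0.19, beside medians from -0.082 to 0.20 in the other strains.

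HIS4 was at 0.04 in rai1, 0.25 in rrp6, -0.16 in ski2, 0.31 in upf1 and -0.10 in xrn1, so the rtt103 value lay far above all of them. MET22 was at 0.00, -0.22, -0.30, 0.12 and -0.55 in the same strains, also below the rtt103 value. HIS5 was closer to the rest, at 0.50 in rai1, 0.48 in rrp6, -0.13 in ski2, 1.07 in upf1 and 0.75 in xrn1. MET28 reached 0.88 in upf1 and 0.87 in xrn1.

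Pair means were also set against the range of the other 5 strains. A level counted as outside when its mean lay beyond the range by 0.5 or more and both arrays lay beyond it. By this rule 4 of the 976 levels were outside, 3 above (0.307%) and 1 below (0.102%). The same count in the other strains, each against the remaining 5, was 4 and 5 in rai1, 7 and 4 in rrp6, 1 and 4 in ski2, 12 and 4 in upf1, and 73 and 40 in xrn1. Above the range lay HIS4, the nuclear tRNA gene YNCB0013W and RGS2. RGS2, for a regulator of glucose signalling, was at 0.14 and -0.35 in rtt103, against -1.26 to -0.72 in the others. YNCB0013W was at 0.47 and 0.69, against -0.75 to -0.0026. The median of all nuclear tRNA genes also lay above its medians in the other strains, as given below. Below the range lay SDP1, for a stress-induced phosphatase, at -0.0079 and -0.23, against 0.74 to 1.12. RGS2 and SDP1 were thus near 0 in the rtt103 strain and far from 0 in all others. These 2 names were chosen after their values were seen.

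Among the 55 called levels, 35 had the same sign in all 5 other strains. On the same side, 13 passed the size in all 5 and 8 passed it in none. The comparisons may share wild-type RNA, so these counts do not stand as separate evidence. Beyond the mating-type genes and SPL2, CIN5, for a bZIP transcription factor of salt tolerance, was at 1.28 and 0.82 in rtt103 and from 1.32 to 1.98 in the others. GAC1, for a subunit that directs the phosphatase Glc7 to glycogen synthesis, was at 1.24 and 0.80, against 0.76 to 2.48. GIS2, for a zinc-finger protein that binds mRNA, was at 0.96 and 1.04, against 0.39 to 1.85. The 8 levels past the size on the same side in no other strain were 5 higher and 3 lower ones. The higher were HIS4, MET22, TYE7, YNCB0013W and SUP61, and the lower were HTA1, KAR2 and NUP53. In xrn1, MET22 (-0.55), YNCB0013W (-0.75), SUP61 (-0.76) and HTA1 (0.71) passed it on the opposite side, as did YNCB0013W in rai1 (-0.59). TYE7, for an activator of glycolytic genes, was at 0.90 and 0.39, against -0.30 to 0.44.

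**Figure D3:**
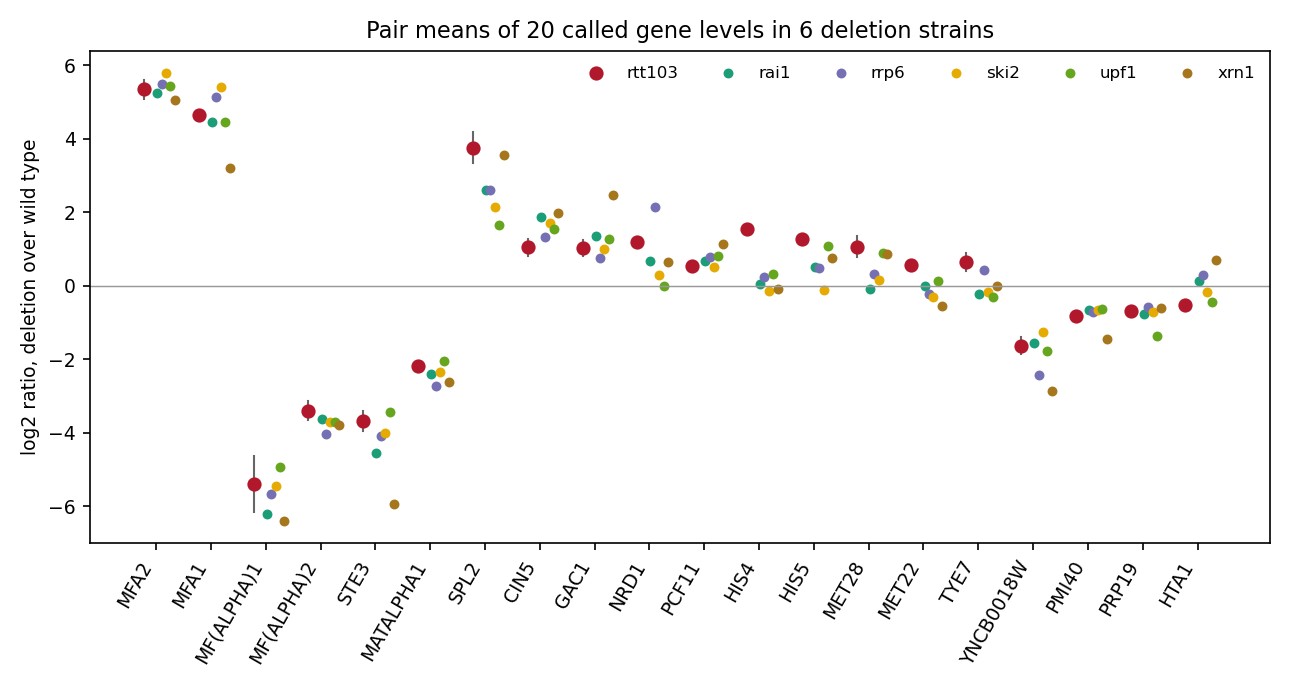
Pair means of 20 called levels (log2, deletion over wild type) are drawn for the rtt103 strain in large red points, with a bar to both arrays, and for rai1, rrp6, ski2, upf1 and xrn1 in small points. The 6 mating-type genes drawn, SPL2, CIN5 and GAC1 each keep to one side of 0 in all 6 strains, while the 5 other strains lie near 0 for HIS4.

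On the lower side, the mannose isomerase gene PMI40 was at -0.83 and -0.80, and the phospholipid synthesis gene CPT1 was at -0.88 and -0.62. Both levels are exon probes. The junction probe, described below, was at -0.23 and -0.57 for PMI40 but at 0.32 and -0.19 for CPT1. NIP7, for a ribosome assembly factor, was at -1.24 and -0.32, so its arrays were far apart. In the other strains PMI40 ranged from -1.44 to -0.62 and CPT1 from -1.10 to -0.40. Both measured histone genes were called lower, beside 2.77% of all levels. HTA1 (histone H2A) was at -0.54 and -0.53, and HHO1 (the linker histone) at -0.25 and -0.83, so its arrays were far apart. HHO1 ranged from -0.54 to -0.084 in the other strains. HTA1 was at 0.12 in rai1, 0.30 in rrp6, -0.18 in ski2, -0.45 in upf1 and 0.71 in xrn1.

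The 8 genes of actin and the cytoskeleton had 1 lower member, beside 2.77% of all levels, and a median of -0.29. Of the 8 genes 7 were below 0 on both arrays, as were 281 of all 976 levels. TUB3, for alpha-tubulin, was called at -0.48 and -0.54, while its junction probe was at 0.11 and -0.20. SAC6, for the actin bundler fimbrin, was at -0.46 and -0.43 and stayed just under the size. ACT1 (actin) was at -0.01 and 0.15.

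The 10 heat shock and stress genes had 1 higher and 1 lower member, beside 2.87% and 2.77% of all levels. SSA3, for a stress-induced Hsp70, was at 0.65 and 0.76, and KAR2, for the Hsp70 of the endoplasmic reticulum, was at -0.75 and -0.31. The constitutive Hsp70 genes SSA1 and SSA2 were at 0.09 and 0.03 in the mean. In the list of 10 carbon metabolism genes only TYE7 was called.

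Splicing factor genes, 88 in number, had 3 lower members, a share close to the 2.77% of all levels called lower, and none higher, with a median of -0.0009. PRP19, for a ubiquitin ligase of the active spliceosome, was at -0.76 and -0.61, and in the other strains it ranged from -1.38 to -0.58. STO1, for the large subunit of the nuclear cap-binding complex, was at -1.16 and -0.21, while its junction probe was at 0.70 and -0.36. SUB2, for a helicase of splicing and mRNA export, had a mean of -0.61. PRP8, for the core splicing factor, was at 0.05 and 0.60. The 123 ribosomal protein genes had no called member and a median of 0.016. Some of their exon probes had nearly the same values, such as RPS18A, RPS4B and RPL40A at -0.006 and 0.091 each. The cause was not tested, so this median near 0 is not read as unchanged RNA. The 36 ribosome assembly genes had no called member and a median of -0.15. Among the assembly genes HCA4, for a helicase of small-subunit assembly, was lowest at -0.63 and -0.30. The medians of that list in the other strains ran from -0.60 to -0.029. The 11 host genes of intronic snoRNAs had no called member and a median of -0.15. IMD4 was lowest among them at -0.35 and -0.29.

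Nuclear tRNA genes differed between the arrays. Their median was 0.33 on the Cy5 array and -0.10 on the Cy3 array, and 36 of 40 had the higher value on the Cy5 array. The median of their pair means was 0.12, beside medians from -0.62 to 0.040 in the other strains. By the rule 2 of the 40 were called higher (YNCB0013W and SUP61), beside 2.87% of all levels, and 4 lower (YNCB0018W, TRR4, YNCD0021C and SUP16), beside 2.77%. YNCB0018W was low on both arrays, at -1.40 and -1.87, and in the other strains it ranged from -2.88 to -1.26. TRR4 was at -0.08 and -1.14, so its call came from the Cy3 array. The 24 mitochondrial tRNA genes had no called member and a median of -0.015.

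**Figure D4:**
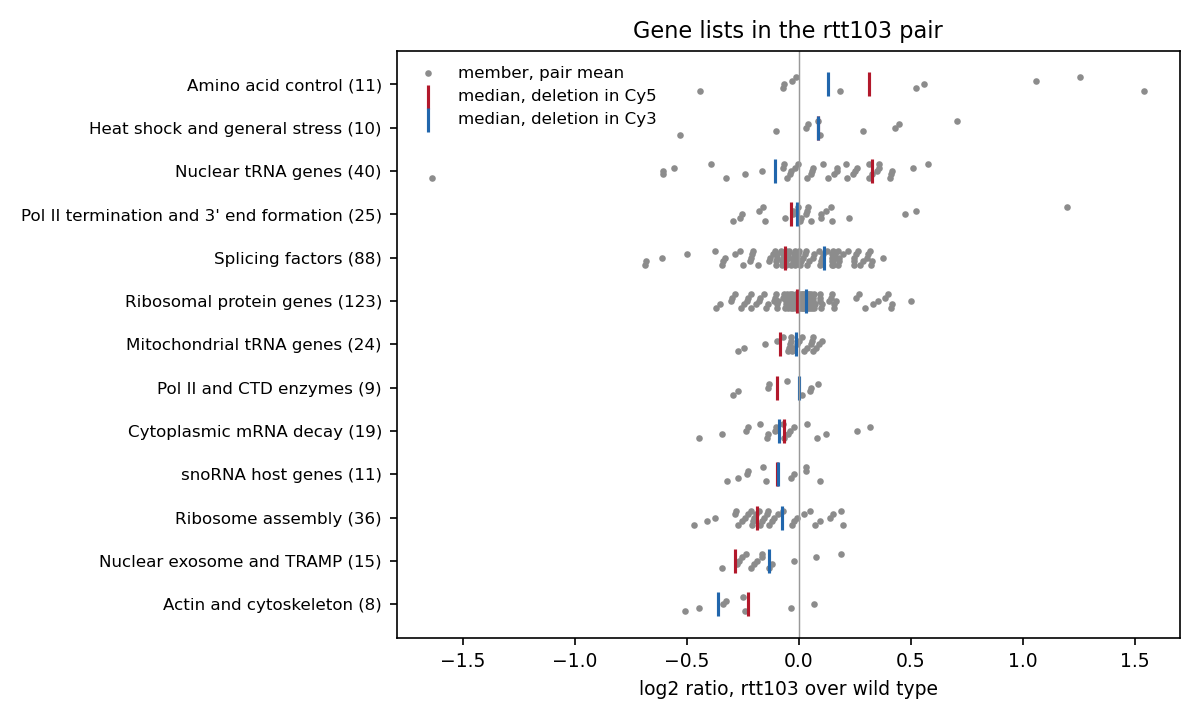
Grey points are pair means (log2, rtt103 over wild type) of the members of 13 gene lists, with the number measured in brackets, and the red and blue bars are the list medians on the Cy5 and Cy3 arrays. The amino acid list has the members farthest to the right, the bars of the nuclear tRNA genes stand far apart, and those of most other lists lie close to 0.

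Splicing was read from 229 genes with an intron, an exon and a junction probe, of which 96 encode ribosomal proteins and 133 do not. The intron index is the intron probe minus the exon probe of a gene, and the junction index is the junction probe minus the exon probe. A higher intron index means more intron signal relative to exon signal in the rtt103 strain than in wild type. Which probe of a gene is which is not stated in the labels or files. The kinds were taken from the layout of the slide and from 12 arrays of prp8-1, a strain with a heat-sensitive core splicing factor. In that strain 218 of the 229 genes (95.2%) followed their layout class, with the intron probe above the exon probe. The same arrays helped to set the kinds, so this is no separate check.

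Intron and junction indices did not repeat between the dye orientations. For the intron index r was 0.034 across the 229 genes, with an SD of 0.25 for pair means and 0.24 for the deviation of either array from them. For the junction index r was -0.21, with SDs of 0.23 and 0.28. Intron probes alone had an r of -0.10, junction probes -0.29 and exon probes 0.25. In the other strains r of the intron index ran from 0.0099 in ski2 to 0.71 in xrn1. By the rule 9 intron indices were called higher (3.93%) and 4 lower (1.75%), and 6 junction indices higher (2.62%) and 3 lower (1.31%). No index of either kind lay outside the range of the other 5 strains by 0.5 or more with both arrays beyond it (0%).

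The highest intron indices with both arrays of the same sign were those of CPT1, at 0.93 and 0.80, and HNT2, for a nucleotide hydrolase, at 0.53 and 1.18. They came about in different ways. In CPT1 the exon probe was low at -0.75 and the intron probe was at 0.11 in the mean, whereas in HNT2 the intron probe was high at 0.79 and 1.08 and the exon probe was at 0.08. PMI40 (0.66), YIP3 (0.63), TUB3 (0.61), SPO1 (0.60), YOP1 (0.58) and ECM33 (0.55) followed, all with an exon probe farther from 0 than the intron probe. This held for 10 of the 13 called intron indices and for 7 of the 9 called junction indices, so most called indices rested on the exon probe. The lowest intron indices were those of the ribosomal protein genes RPL20B (-0.59), RPS29A (-0.58) and RPS10B (-0.57) and of the kinase gene MRK1 (-0.51). RPL20B had -1.003 on the Cy5 array and -0.18 on the Cy3 array, which were far apart.

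Among junction indices with both arrays of the same sign, CPT1 (0.81) and ECM33 (0.78) were highest and MRK1 (-0.79) and PAL2 (-0.61) lowest. STO1 had a larger mean of 0.85, with opposite signs at 1.85 and -0.15. ECM33, for a cell wall protein, had 0.22 on the Cy5 array and 1.33 on the Cy3 array. The median intron index was -0.078 over ribosomal protein genes and 0.080 over the others, but the sign depended on the array. For ribosomal protein genes it was -0.12 on the Cy5 array and 0.018 on the Cy3 array, and for the others -0.026 and 0.16. Median junction indices were 0.014 and 0.012 in the same order. The limit given above for exon probes of ribosomal protein genes holds for their index medians too. Some of their junction probes also had nearly the same values, such as RPS4A and RPS9B at -0.047 and 0.11 each. The cause was not tested.

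**Figure D5:**
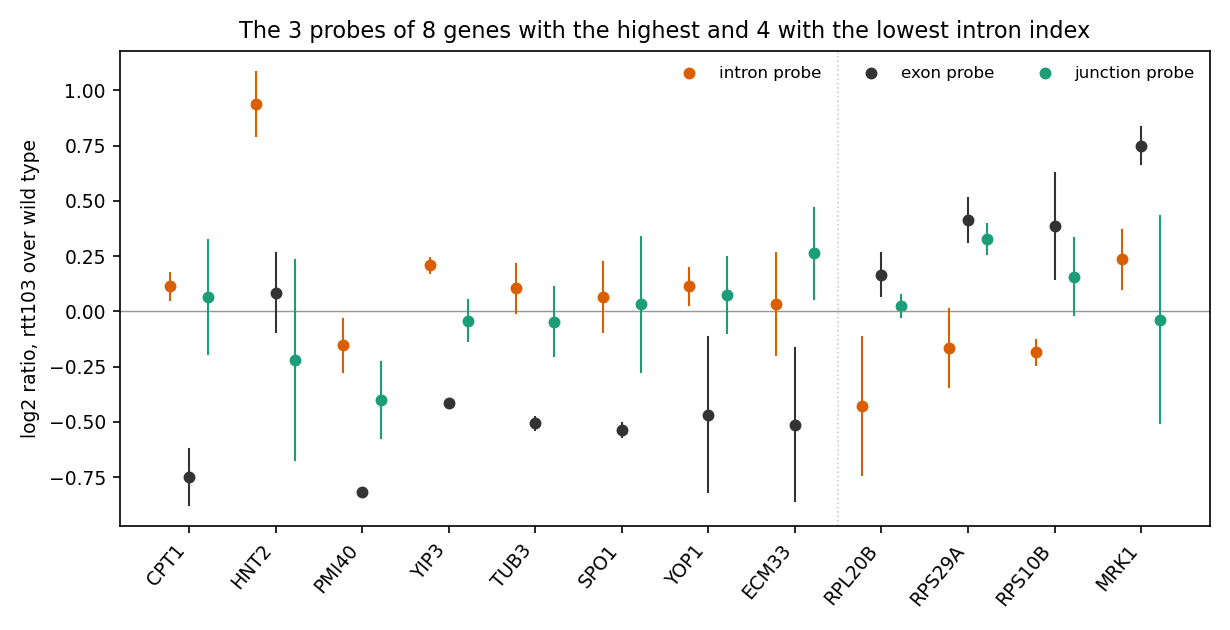
The intron, exon and junction probes of the 8 genes with the highest and the 4 with the lowest intron index are drawn as log2 ratios (rtt103 over wild type), each point a pair mean with a bar to both arrays. HNT2 alone has a high intron probe (0.94), while CPT1 and PMI40 have exon probes at -0.75 and -0.82.

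Intron probes on their own were called higher in 5 genes (2.18%) and lower in 1 (0.437%), RPS17B. The 5 genes were HNT2, RPS14B, RPS9A, YBR219C and RPL18B, named here after their values were seen. RPS14B, whose protein is known to bind its own pre-mRNA, was at 0.92 and 0.86, and RPS9A was at 0.84 and 0.86. RPL18B was at 0.85 and 0.26, and YBR219C at 0.55 and 0.89. Exon probes were above 0 in the mean as well, at 0.42 in RPS14B, 0.33 in RPS9A, 0.40 in RPL18B and 0.41 in YBR219C. The intron index was thus called in HNT2 and RPS9A, but not in RPS14B (0.47), YBR219C (0.31) or RPL18B (0.16). RPS14B, RPS9A and RPL18B belong to a list of 10 genes with autoregulated introns, whose median intron probe was -0.0043. The other 7 of these genes had no called intron probe. In the rrp6 strain, which lacks a nuclear exosome exonuclease, the same intron probes were at 2.502 for RPS14B, 2.35 for RPS9A and 2.54 for RPL18B. In rai1 they were at 0.37, 0.68 and 0.49 in the same order. In ski2 they were at 0.0011, 0.30 and 0.16, in upf1 at 0.69, 0.98 and 0.25, and in xrn1 at 0.86, 1.26 and -0.88. The intron probe of HNT2 ranged from 0.49 to 1.43 in the other strains, and that of YBR219C from 0.11 to 0.45. Near-identical copies of ribosomal protein genes can share the signal of a probe, which limits these values.

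Exon probes alone were called higher in 2 genes (0.873%) and lower in 6 (2.62%), and junction probes higher in 2 (0.873%) and lower in 1 (0.437%). The called exon probes are also called levels, but junction probes of these genes lay nearer to 0 or on its other side. Junction means were -0.04 in MRK1 and -0.09 in PAL2, whose exon probes were higher. Where exon probes were lower they were -0.40 in PMI40, -0.05 in TUB3, 0.03 in SPO1, 0.07 in CPT1, 0.17 in STO1 and 0.26 in ECM33. The called junction probes, also named after their values were seen, were RPL42A at 0.69 and 0.52, RPS30A at 0.60 and 0.47, and EPT1, for an enzyme of phospholipid synthesis, at -0.77 and -0.50. RPL42A and RPS30A had exon probes above 0 as well, at 0.35 and 0.30 in the mean.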

How the data were processed

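The authors deposited 1 log2 ratio per spot in a table of the whole series. The base of the logarithm was taken as 2. How background, normalization and spot filtering were handled, and with which tools, is not given in the sources used here. Total RNA was extracted with acid phenol and labelled through aminoallyl-dUTP cDNA, per the labels. Array medians were -0.018 (deletion in Cy5) and 0.0077 (deletion in Cy3), and 0.130% and 0.358% of spots were missing. Both arrays already ran as deletion over wild type, so no sign was changed and no further centring was applied. No channel intensities entered, so how far probes stood over background is unknown, and precision is limited by there being 2 arrays.

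The slide holds 9216 spots, 1536 probes of 6 spots each, which were averaged (median SD over spots 0.083 and 0.087). The platform annotation names 1457 probes for 982 genes, each with 1 symbol, and 79 probes are unnamed here. All 982 symbols were updated through the RefSeq gene table, used for names only. Probe kinds came from slide spacing and prp8-1, where 218 of 229 genes followed their class. Kinds may be wrong in HNT1, NOG2, RPL23A and RPL6B and in other genes too. For 6 genes with several probes of unknown kind no level was computed. Every level is an unreplicated pair mean, described and not tested.

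The pair, the gene lists and the call rule were chosen with earlier results of these data known. Named genes were the 12 highest and 12 lowest levels, 8 intron and 6 junction indices at each end, each with both arrays of 1 sign, all termination and mating-type genes, neighbours of RTT103, the genes deleted in the other strains and up to 2 members at each end of every other list. Names outside this rule are marked in the text or belong to counts given there. The list of nuclear tRNA genes was redefined by gene type after the symbols were seen. No snRNA, snoRNA or strain marker gene was measured. The call script was tested on simulated data. Python 3.11.15, numpy 2.4.6, pandas 2.3.3 and scipy 1.17.1 were used. Alternatives were the median over spots, centring, each array alone, other sizes, stricter probe kinds and the level as the mean of exon and junction probes. No sequence is shown, since none was used here.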

Additional observations from a re-analysis of the deposited data

Results flagged for a closer look

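The levels below lay on opposite sides of 0, with both arrays of each pair alike, in the rtt103 strain and in another deletion strain. None of these differences was tested, since each strain has 1 pair of arrays. HMRA2 had -0.828 in rtt103, against 0.834 in upf1 and 0.521 in xrn1. HMRA2 shares part of its sequence with MATALPHA2, which had -0.82, against 0.46 and 0.41. SPO1, a meiotic phospholipase gene with an intron, had -0.537 in rtt103, against 0.668 in upf1 and 0.701 in xrn1. HTA1 had -0.534 in rtt103, against 0.705 in xrn1. The tRNA gene YNCB0013W had 0.58 in rtt103, against -0.593 in rai1 and -0.752 in xrn1. The serine tRNA gene SUP61 had 0.51 in rtt103, against -0.759 in xrn1.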

How the results depend on the processing

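No paired analysis was possible because the group holds 1 pair of arrays and no test was run. Averaging spots by their median gave 30 higher and 25 lower levels, and centring each array gave 29 and 26, against 28 and 27. Either array alone gave 39 to 78 higher and 57 to 59 lower levels, 15 to 27 higher and 5 to 22 lower intron indices, and 13 to 24 higher and 13 to 17 lower junction indices. The cause was not tested. The calls at a size of 0.3 were 89 higher and 97 lower levels, 31 and 14 intron indices and 13 and 10 junction indices. At a size of 1 they were 9 and 5 levels and 0 indices of either kind in both directions. Asking both arrays to pass 0.5 themselves left 17 higher and 12 lower levels, 5 and 0 intron indices and 0 and 1 junction indices. With the level as the mean of exon and junction probes, 26 higher and 23 lower levels were called. Stricter probe kinds left 184 genes, with 8 higher and 4 lower intron indices and 6 and 2 junction indices. Without the mating-type genes, an alternative chosen after seeing the data, 26 higher and 21 lower levels were called. The correlation of both arrays over gene levels was 0.65, and 0.24 without the mating-type genes and SPL2. Of 149 named values, those called kept their sign under the median over spots and centring. With either array alone they keep it by the call rule itself, so that is no check. With the median over spots or centring, 14 of 298 moved by more than the deviation of either array from the mean, by at most 0.28. Called values with arrays far apart, such as NIP7, STO1 and TRR4, rest mostly on 1 array.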

Other observations

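Some called levels belong to none of the groups above, and they are given here after their values were seen. The maltose regulators MAL33 and MAL13 had means of 0.84 and 0.64 in rtt103. MAL33 was at 0.85 and 0.83 on the Cy5 and Cy3 arrays, and in the other strains it ranged from -0.26 to 1.04. CTH1, for a protein that binds mRNAs of iron-rich enzymes, had a mean of 0.64, and GAT1, for an activator of nitrogen genes, 0.55. SWI5, for a transcription factor of the cell cycle, had a mean of -0.59. RPL22B, for a ribosomal protein whose intron is autoregulated, was at 0.29 and 0.71 and stayed just under the size for a call. In the 8 ubiquitin and proteasome genes no member was called, with RUB1, for a ubiquitin-like modifier, highest at 0.33 and 0.40. Of the 11 meiotic genes with introns, SPO1 alone was called, and HOP2 was at 0.50 and 0.19.

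Of the 79 unnamed probes 5 were called higher and 0 lower, beside 2.87% and 2.77% of all gene levels. Their pair means ran from -0.44 to 0.99.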
